A study of Mus musculus with 72 samples.

Results

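The hippocampus was compared with the cerebral cortex in wild-type mice, using 12 of the 72 RNA-seq libraries of the series. The members were chosen by sample title: 6 hippocampal and 6 cortical libraries, 1 of each from mice 7, 8, 15, 16, 17 and 18. The series was made to study mice that lack Gnb5, the atypical G protein beta subunit whose loss in humans causes a syndrome of intellectual disability and slow heart rate. All mice were 18-week-old males of a line made on the C57BL/6J background, and the wild-type mice carried 2 intact Gnb5 alleles (Gnb5+/+). The labels name no agent given to the wild-type mice. Both hippocampi and the whole cortical sheet of a mouse were dissected and homogenised, so each library averages over all subfields, layers and cell types. In such bulk tissue fewer cells of a type and less RNA per cell cannot be told apart. Counts on genes ranged from 35449343 to 44444876 in the hippocampal and from 38071290 to 43666511 in the cortical libraries. Within each region, every library correlated with the others at a median Pearson's r of at least 0.9878 on the log2 scale, and none stood apart.

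The hippocampus is an old, curved cortical field in which granule cells of the dentate gyrus send mossy fibres to CA3 pyramidal cells, which in turn project to CA1, with the small CA2 field between them. The neocortex is a layered sheet in which upper layers exchange signals between cortical areas, layer 4 receives thalamic input, and deep layers send axons to the thalamus, striatum, brainstem and spinal cord. Both are built mainly of glutamatergic pyramidal neurons with a minority of GABAergic interneurons, and both carry astrocytes, oligodendrocytes, microglia and vessels.

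Of 17892 genes tested, 5218 were higher in hippocampus and 4966 were lower, at a Benjamini-Hochberg adjusted p below 0.05 in a paired edgeR quasi-likelihood test with each mouse as a block. The called share was 56.9% of the genes tested, with 29.2% called higher and 27.8% called lower in hippocampus. These shares are the background for every count of list members below, and a count near them is not a result about the list. Most of these differences were small: 85% of the called genes differed by less than 2-fold, and the median size of a called difference was 0.35 on the log2 scale. At a fold of 2 or more, 598 genes (3.34%) were higher in hippocampus and 932 (5.21%) were higher in cortex. These counts moved with the filter, to 387 and 591 with at least 10 counts in every library and to 855 and 1422 with no filter. The cortex also led among the steepest differences, with 50 genes at a log2 fold change of 4 or more against 24 in the hippocampus. No minimum level was set for these counts, so genes near the count filter are among them. Over all genes tested, the median log2 fold change was -0.0022. The 6 hippocampal and 6 cortical values did not overlap for 5195 genes (29%). Levels below are TMM-normalised counts scaled to a common library size (CPM), given as lowest, median and highest of 6 mice or as mean ± SD (n = 6), and all fold changes are hippocampus over cortex on the log2 scale.

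**Figure D1:**
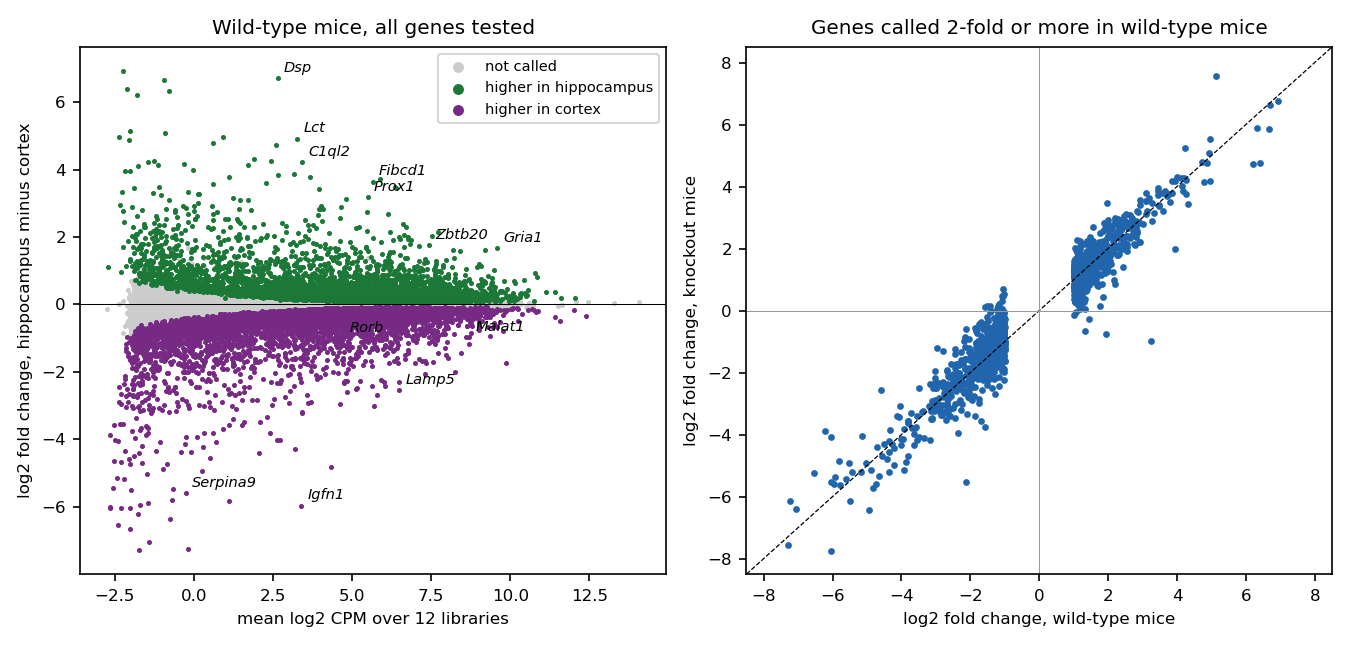
Left, log2 fold change (hippocampus minus cortex) against the mean log2 CPM over 12 wild-type libraries for each of the 17892 genes tested, coloured by the paired edgeR call. Right, the log2 fold change of genes called at 2-fold or more in wild-type mice, plotted against the log2 fold change in 6 other mice that lack Gnb5; the dashed line marks equal values, and most points share their sign in both genotypes.

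The labelled regions were checked with 4 genes. Prox1 (chr1:190118035-190170714), the homeodomain factor that keeps dentate granule cells in their identity, ranged from 118 to 174 CPM in hippocampus (median 130.2) and from 14 to 16.4 CPM in cortex (median 14.5). It was 9.08-fold higher in hippocampus (log2 fold change 3.18, SE 0.07, adjusted p = 1.76e-11), and the highest cortical library stayed far below the lowest hippocampal one. Zbtb20 (chr16:42875881-43642602), a zinc finger repressor needed for CA1 and dentate identity, ranged from 278 to 393 CPM in hippocampus (median 305) and from 83.1 to 107 CPM in cortex (median 92.9). Its difference was smaller than that of Prox1 (log2 fold change 1.76, SE 0.09, adjusted p = 7.83e-09), and the groups did not overlap. Lamp5 (chr2:136052239-136069917), a lysosome-associated membrane protein of upper-layer and neurogliaform cells, ranged from 33.3 to 41.1 CPM in hippocampus (median 37.3) and from 176 to 261 CPM in cortex (median 216). Rorb (chr19:18930605-19111196), the nuclear receptor that marks layer 4, ranged from 17.1 to 20.8 CPM in hippocampus (median 18) and from 30.9 to 40.8 CPM in cortex (median 38.1). Lamp5 was 5.79-fold (log2 fold change -2.53, SE 0.06, adjusted p = 1.96e-11) and Rorb 2.02-fold higher in cortex (log2 fold change -1.01, SE 0.04, adjusted p = 1.75e-09), again without overlap. Each of the 4 genes differed in the same direction in 6 of 6 mice, and each reached p = 0.03125 in a two-sided exact sign-flip test over 64 flips, the smallest that 6 pairs allow. In the cerebellum of the same 6 mice, normalised together with both other regions, Prox1 averaged 74.9 ± 16.9 CPM, Zbtb20 206 ± 18.4, Lamp5 0.357 ± 0.259 and Rorb 9.83 ± 1.05 CPM.

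**Figure D2:**
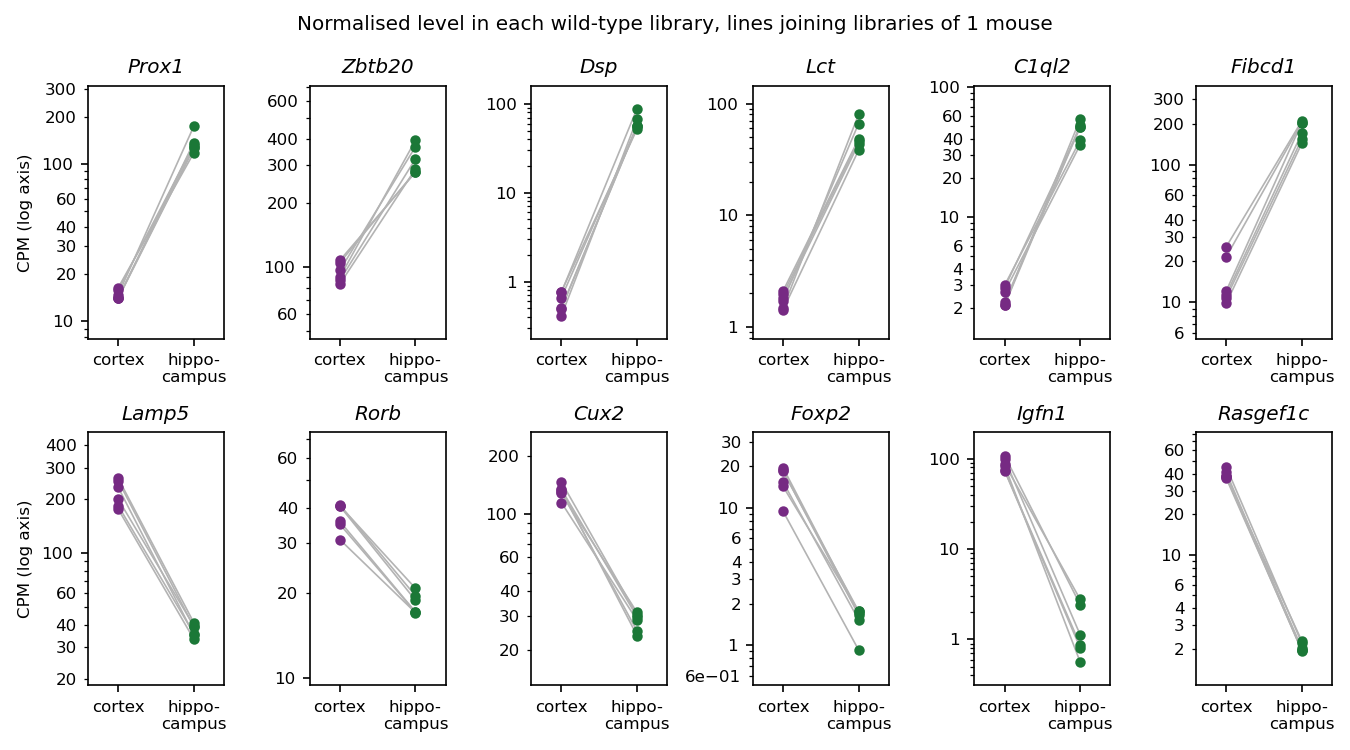
Normalised level (CPM, log axis) of 12 genes in each cortical (purple) and hippocampal (green) wild-type library, with a line joining the libraries of 1 mouse. The upper row holds genes higher in hippocampus and the lower row genes higher in cortex, and in every panel the 6 lines run in the same direction with no overlap of the groups. For Dsp, Lct, C1ql2, Igfn1 and Rasgef1c, absence of overlap was a condition of their choice.

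Among protein-coding genes at 5 CPM or more in the hippocampus, the steepest excess in hippocampus was that of Dsp (chr13:38151294-38198577), which encodes desmoplakin, the protein that ties desmosomes to intermediate filaments. Dsp ranged from 51.9 to 88.3 CPM in hippocampus (median 56) and from 0.411 to 0.77 CPM in cortex (median 0.581), a 104-fold difference (log2 fold change 6.70, SE 0.10, adjusted p = 7.22e-13). All 6 cortical libraries were below 1 CPM. Lct (chr1:128284756-128328318), the gene of the milk sugar enzyme lactase, ranged from 38.2 to 79.9 CPM in hippocampus (median 47.1) and from 1.41 to 2.08 CPM in cortex (median 1.76) (log2 fold change 4.92, SE 0.13, adjusted p = 4.05e-11). Tdo2 (chr3:81957090-81976202), which opens the kynurenine path of tryptophan breakdown, ranged from 6.22 to 9.06 CPM in hippocampus (median 7.76) and from 0.141 to 0.367 CPM in cortex (median 0.288) (log2 fold change 4.79, SE 0.13, adjusted p = 5.92e-11). C1ql2 (chr1:120340582-120343174), a secreted C1q-like protein of mossy fibre synapses, ranged from 35.8 to 56.3 CPM in hippocampus (median 49) and from 2.08 to 2.97 CPM in cortex (median 2.42) (log2 fold change 4.22, SE 0.12, adjusted p = 7.03e-11). These 4 genes are all on the dentate granule cell list, and for each the lowest hippocampal library was many times the highest cortical one. Leading genes were picked for large change without overlap of the regions, so their separation follows from that choice.

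Further leading hippocampal genes were Syna, Slc9a4, Spink8, Vwa3b and Tspan18. Syna (chr5:134558146-134560171), a syncytin derived from a retroviral envelope gene and known from placental cell fusion, averaged 9.97 ± 1.45 CPM in hippocampus and 0.317 ± 0.0663 CPM in cortex (log2 fold change 4.96, SE 0.12, adjusted p = 3.37e-11). Slc9a4 (chr1:40580081-40630725), a sodium-proton exchanger, averaged 31.3 ± 4.35 against 1.18 ± 0.392 CPM (log2 fold change 4.73, SE 0.11, adjusted p = 2.09e-11). Spink8 (chr9:109812280-109826633), a Kazal-type serine protease inhibitor of CA1, averaged 16.2 ± 1.46 against 0.816 ± 0.178 CPM (log2 fold change 4.31, SE 0.09, adjusted p = 1.13e-11). For these 3 genes the cortical mean was near 1 CPM or below. Vwa3b (chr1:37026596-37187613), which carries a von Willebrand factor A domain, averaged 13.9 ± 2.26 against 0.788 ± 0.356 CPM (log2 fold change 4.14, SE 0.17, adjusted p = 1.77e-09), and the tetraspanin Tspan18 (chr2:93201760-93334505) 34.5 ± 5.86 against 2.35 ± 0.262 CPM (log2 fold change 3.87, SE 0.10, adjusted p = 4.5e-11). The 9 leading genes named here were also called higher in the hippocampus of the mice that lack Gnb5, with log2 fold changes from 3.44 (Spink8) to 6.63 (Dsp).

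Among protein-coding genes at 5 CPM or more in the cortex, the steepest excess in cortex was that of Igfn1 (chr1:135953578-136006342), a protein of immunoglobulin-like and fibronectin domains known from skeletal muscle. Igfn1 ranged from 0.564 to 2.78 CPM in hippocampus (median 0.999) and from 74 to 108 CPM in cortex (median 85.8), a 62.3-fold difference (log2 fold change -5.96, SE 0.18, adjusted p = 1.24e-10). Rasgef1c (chr11:49901835-49980994), an exchange factor for Ras-family GTPases, ranged from 1.93 to 2.29 CPM in hippocampus (median 1.99) and from 37.4 to 45.3 CPM in cortex (median 38.8) (log2 fold change -4.27, SE 0.06, adjusted p = 7.22e-13), and its spread between mice was narrow in both regions. Dkkl1 (chr7:45207519-45212147), a secreted relative of the Wnt antagonist Dickkopf, ranged from 0.343 to 1.3 CPM in hippocampus (median 0.934) and from 16.2 to 21.8 CPM in cortex (median 19.6) (log2 fold change -4.41, SE 0.14, adjusted p = 2.05e-10). Abi3bp (chr16:56477878-56690135), an extracellular matrix protein, averaged 1.67 ± 0.701 CPM in hippocampus and 27.5 ± 6.45 CPM in cortex (log2 fold change -4.02, SE 0.20, adjusted p = 6.48e-09). Lower in level were Serpina9, a serine protease inhibitor of the serpin family (0.106 ± 0.0495 against 5.28 ± 2.8 CPM, log2 fold change -5.60), Sh3rf2, a RING finger protein (0.237 ± 0.196 against 7.1 ± 2.68 CPM, log2 fold change -4.95), and Trh, the thyrotropin-releasing hormone (0.374 ± 0.134 against 6.49 ± 0.99 CPM, log2 fold change -4.08). Each was below 1 CPM in the hippocampal mean. Absence of overlap between the 2 regions was a condition for choosing all leading genes.

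Adora2a, an adenosine receptor of indirect-pathway striatal neurons, was also among the leading cortical genes and ranged from 0.901 to 3.0 CPM in hippocampus (median 1.34) and from 11.9 to 40.5 CPM in cortex (median 24.4) (log2 fold change -4.02, SE 0.30, adjusted p = 2.62e-07). The whole striatal marker list lay on the cortical side, and no member was at 0 in all 12 libraries. Of its members, 9 of 9 were lower in hippocampus, with a median log2 fold change of -2.92. Their summed level ranged from 76.9 to 89.2 CPM in hippocampus and from 361 to 838 CPM in cortex, and the cortical values varied more between mice than the hippocampal ones. The dopamine receptors Drd1 (4.42 ± 0.874 against 34.3 ± 10.5 CPM, log2 fold change -2.92, adjusted p = 2.01e-09) and Drd2 (2.94 ± 0.306 against 23.5 ± 9.95 CPM, log2 fold change -2.92, adjusted p = 1.89e-08), the receptor Gpr6 (0.628 ± 0.249 against 7.78 ± 3.05 CPM, log2 fold change -3.58, adjusted p = 1.48e-08) and Ppp1r1b, the dopamine-regulated phosphatase inhibitor DARPP-32 (29.3 ± 4.54 against 148 ± 38.4 CPM, log2 fold change -2.30, adjusted p = 2.19e-08), belong to it. The cortical library of mouse 17 had the lowest striatal sum and also the lowest cortical level of Adora2a, Drd1 and Rgs9. Even in that mouse Adora2a stood at 11.9 CPM in cortex against 3.0 CPM in hippocampus. The part that tissue from the neighbouring striatum plays in the cortex-high results was not tested.

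**Figure D3:**
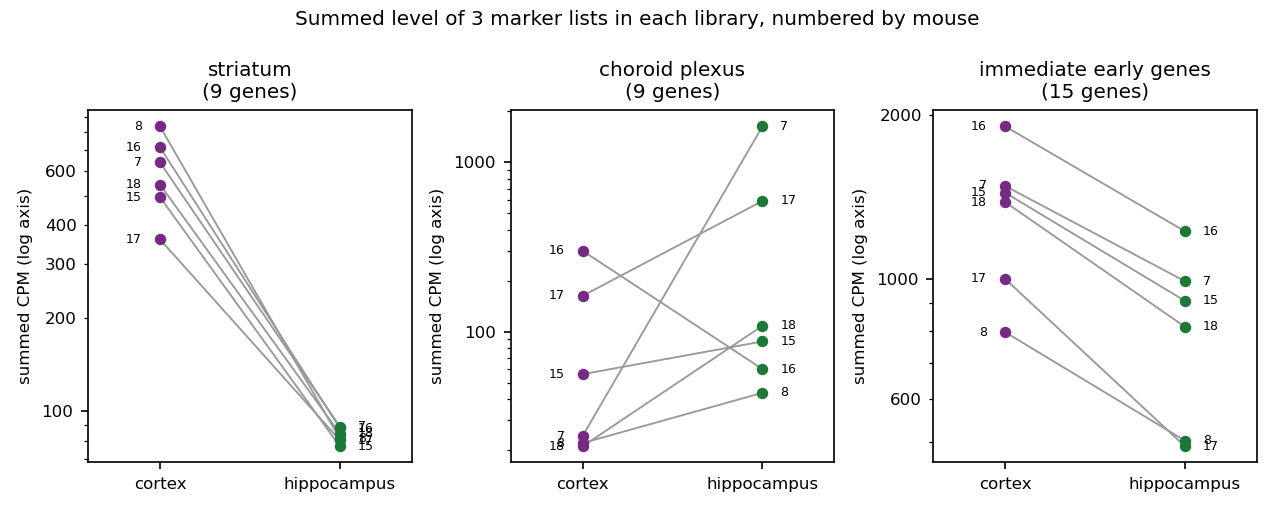
Summed CPM (log axis) of the striatal (9 genes), choroid plexus (9 genes) and immediate early (15 genes) lists in each wild-type library, with libraries of 1 mouse joined and numbered. Striatal sums were higher in cortex and immediate early sums were higher in cortex in all 6 mice, and choroid plexus sums scattered over more than an order of magnitude.

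To show what lies around the start sites of genes with steep regional differences, RefSeq promoter windows (GRCm38.p6, 250 bases before to 50 after an annotated start) were searched for the E-box CANNTG, the hexamer bound by basic helix-loop-helix factors such as the NeuroD proteins described below. The motif reads the same on both strands. Windows were at hand for 14 of the 24 marker and leading genes, 18 windows in all. The 3 hippocampus-high and 3 cortex-high windows below are printed 5′ to 3′ on the strand of the gene, with each E-box in capitals. Each printed window holds an E-box, which not every window searched does. Prox1 and Lamp5 each have another window that is not printed, and the other Prox1 window holds no E-box.
Dsp (chr13:38151044-38151343, plus strand): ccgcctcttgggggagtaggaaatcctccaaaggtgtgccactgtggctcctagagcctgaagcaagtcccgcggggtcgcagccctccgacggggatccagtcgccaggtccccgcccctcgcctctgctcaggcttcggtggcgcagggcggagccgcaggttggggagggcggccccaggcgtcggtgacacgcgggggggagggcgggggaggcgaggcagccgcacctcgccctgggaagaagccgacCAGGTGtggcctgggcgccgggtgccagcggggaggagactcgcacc
Lct (chr1:128328269-128328568, minus strand): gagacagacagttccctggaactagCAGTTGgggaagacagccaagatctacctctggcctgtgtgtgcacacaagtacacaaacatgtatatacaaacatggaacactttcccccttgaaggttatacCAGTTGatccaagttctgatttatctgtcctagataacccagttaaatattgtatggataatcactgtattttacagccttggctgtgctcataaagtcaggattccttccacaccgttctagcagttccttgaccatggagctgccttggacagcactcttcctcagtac
Prox1 (chr1:190170778-190171077, minus strand): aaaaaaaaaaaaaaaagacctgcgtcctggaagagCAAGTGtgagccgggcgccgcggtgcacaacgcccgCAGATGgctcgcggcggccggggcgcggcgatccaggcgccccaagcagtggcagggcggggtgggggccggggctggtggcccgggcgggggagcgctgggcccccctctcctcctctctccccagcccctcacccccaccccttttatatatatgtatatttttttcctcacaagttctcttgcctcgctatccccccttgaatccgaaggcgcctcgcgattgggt
Igfn1 (chr1:136006293-136006592, minus strand): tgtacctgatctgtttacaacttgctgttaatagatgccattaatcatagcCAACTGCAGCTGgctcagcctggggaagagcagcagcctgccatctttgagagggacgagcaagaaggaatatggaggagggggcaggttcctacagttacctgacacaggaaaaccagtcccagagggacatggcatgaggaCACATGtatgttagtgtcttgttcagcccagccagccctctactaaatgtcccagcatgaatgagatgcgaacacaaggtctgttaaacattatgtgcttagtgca
Dkkl1 (chr7:45211834-45212133, minus strand): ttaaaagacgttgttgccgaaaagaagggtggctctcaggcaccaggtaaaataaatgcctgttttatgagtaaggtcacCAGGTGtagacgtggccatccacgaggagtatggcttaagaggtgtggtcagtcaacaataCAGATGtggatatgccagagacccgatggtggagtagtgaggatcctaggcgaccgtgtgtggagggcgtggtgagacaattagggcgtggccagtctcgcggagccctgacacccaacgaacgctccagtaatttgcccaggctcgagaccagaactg
Lamp5 (chr2:136057498-136057797, plus strand): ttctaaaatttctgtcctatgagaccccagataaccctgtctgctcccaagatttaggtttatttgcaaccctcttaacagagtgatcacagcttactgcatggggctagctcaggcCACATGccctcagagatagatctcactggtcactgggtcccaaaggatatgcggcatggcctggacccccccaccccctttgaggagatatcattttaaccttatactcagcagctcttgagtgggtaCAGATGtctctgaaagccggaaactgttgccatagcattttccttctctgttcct

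An E-box was found in 6 of 9 windows of hippocampus-high genes and in 8 of 9 windows of cortex-high genes, against 72.3% of all 32851 windows. The form CATCTG, or CAGATG on the other strand, which is part of the E-box set and is the one preferred by NeuroD proteins, was found in 1 hippocampus-high window (Prox1) and in 3 cortex-high windows (Dkkl1, Lamp5 and Trh), against 17.2% of all windows. Matches are a description of these letters only.

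The subfield lists of the hippocampus lay mostly on the hippocampal side. They were set with earlier results of these data known. The dentate list holds Dsp, Lct, Tdo2 and C1ql2, named above because of their large change. Of 12 dentate granule cell genes tested, 11 were higher in hippocampus and 1 was lower, with a median log2 fold change of 1.45. Besides Dsp, Lct, Tdo2, C1ql2 and Prox1, the transcription factor Glis3 rose from 7.74 ± 0.739 CPM in cortex to 26.8 ± 2.95 CPM in hippocampus (log2 fold change 1.79, SE 0.05, adjusted p = 4.55e-11). The cation channel gene Trpc6 (29.3 ± 3.45 against 13.5 ± 2.17 CPM, log2 fold change 1.12, adjusted p = 1.81e-06) and Dock10, an exchange factor for small GTPases (131 ± 11.4 against 60.6 ± 6.62 CPM, log2 fold change 1.11, adjusted p = 8.4e-09), were more than 2-fold higher in hippocampus. Plk5, a polo-like kinase, was the 1 member that was lower (25.6 ± 5.12 against 33.4 ± 3.38 CPM, log2 fold change -0.40, adjusted p = 0.000725), and its groups overlapped.

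Of 10 CA3 genes, 8 were higher and 1 lower in hippocampus (median 0.75). Npy2r, the presynaptic Y2 receptor of neuropeptide Y, ranged from 57.4 to 74.4 CPM in hippocampus (median 71.3) and from 7.49 to 11.1 CPM in cortex (median 8.94) (log2 fold change 2.89, SE 0.09, adjusted p = 2.22e-10). Iyd, an iodotyrosine deiodinase, averaged 3.74 ± 1.19 against 0.23 ± 0.0701 CPM (log2 fold change 4.0, adjusted p = 6.96e-10), and Grik4, the high-affinity kainate receptor subunit of mossy fibre synapses, 78 ± 3.83 against 24 ± 2.23 CPM (log2 fold change 1.70, adjusted p = 1.51e-10). Coch, which encodes the matrix protein cochlin, went the other way (4.92 ± 2.0 against 31.7 ± 10.8 CPM, log2 fold change -2.68, adjusted p = 3.75e-08), while Spock1, a matrix proteoglycan, did not pass the test (log2 fold change 0.09, adjusted p = 0.0681) except without mouse 8 (adjusted p = 0.0346).

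Of 7 CA1 genes, 6 were higher and 1 lower in hippocampus (median 1.51). Fibcd1, a chitin-binding transmembrane receptor, ranged from 144 to 209 CPM in hippocampus (median 186) and from 9.8 to 25.3 CPM in cortex (median 11.7) (log2 fold change 3.64, SE 0.12, adjusted p = 2.64e-10). In cortex, Fibcd1 was about 2 times as high in mice 8 (25.3 CPM) and 17 (21.3 CPM) as in the other 4. The signalling ligand Lefty1 (7.79 ± 1.18 against 0.561 ± 0.134 CPM, log2 fold change 3.79, adjusted p = 2.22e-10), the POU factor Pou3f1 (31.1 ± 1.84 against 10.9 ± 1.07 CPM, log2 fold change 1.51, adjusted p = 2.5e-10) and the mannosidase Man1a (83.2 ± 4.32 against 36 ± 2.32 CPM, log2 fold change 1.21, adjusted p = 1.63e-09) were also higher. Wfs1, the endoplasmic reticulum protein wolframin often used to stain CA1, was lower in hippocampus (135 ± 19.5 against 179 ± 23 CPM, log2 fold change -0.41, adjusted p = 0.00128), with overlap between the regions.

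Of the 7 CA2 genes tested, 4 were higher and 2 lower in hippocampus (median 0.41). Ntf3, which encodes neurotrophin-3, (5.08 ± 0.922 against 1.36 ± 0.301 CPM, log2 fold change 1.90, adjusted p = 1.75e-08) and the adhesion molecule Amigo2 (29.1 ± 5.83 against 8.73 ± 0.655 CPM, log2 fold change 1.72, adjusted p = 2.74e-09) rose most, and Rgs14, a regulator of G protein signalling that limits plasticity in CA2, rose less (106 ± 12.3 against 64.5 ± 5.48 CPM, log2 fold change 0.71, adjusted p = 8.59e-07). Pcp4, a calmodulin-binding peptide of CA2 that deep cortical cells also express, was lower in hippocampus (8.34 ± 1.06 against 19.5 ± 3.01 CPM, log2 fold change -1.22, adjusted p = 5.85e-08). Avpr1b, the vasopressin V1b receptor and the 8th gene of the list, fell below the count filter in the wild-type fit, at 0.225 to 1.12 CPM in hippocampus and at most 0.0496 CPM in cortex. Of 4 mossy cell genes, 3 were higher, led by Csf2rb2 (5.08 ± 1.17 against 1.26 ± 0.331 CPM, log2 fold change 2.01, adjusted p = 3.47e-08), a cytokine receptor subunit whose close paralog makes its count less certain, and Calb2, the calcium buffer calretinin (37.2 ± 6.7 against 18.9 ± 2.33 CPM, log2 fold change 0.97, adjusted p = 3.27e-07). The exception was Drd2, which is also a striatal marker and was higher in cortex as given above.

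**Figure D4:**
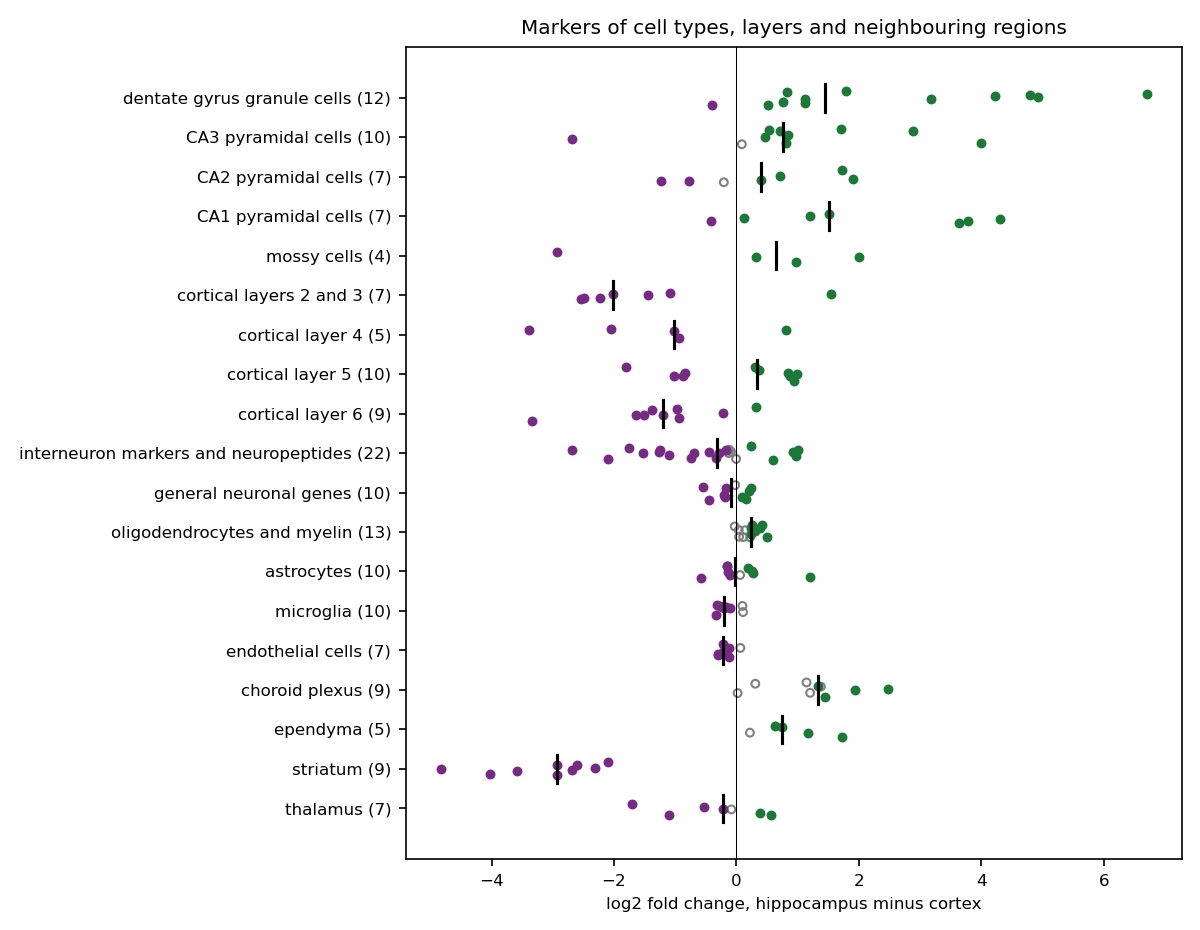
Log2 fold change (hippocampus minus cortex) of each tested member of 19 marker lists, with the number tested in brackets, filled points for called genes (green, higher in hippocampus; purple, higher in cortex), open points for genes not called and a bar at the list's median. Subfield lists lie to the right and most upper and deep layer lists to the left, with layer 5 on both sides of 0.

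The layer markers of the neocortex separated by layer. Of 7 genes of layers 2 and 3, 6 were lower in hippocampus (median -2.02). Otof, the calcium sensor otoferlin, ranged from 11.4 to 18.3 CPM in hippocampus (median 14.7) and from 70.9 to 93.8 CPM in cortex (median 83.1) (log2 fold change -2.50, SE 0.07, adjusted p = 4.55e-11). The homeobox factor Cux2 ranged from 23.6 to 31.1 CPM in hippocampus (median 29) and from 115 to 147 CPM in cortex (median 132) (log2 fold change -2.23, SE 0.06, adjusted p = 4.5e-11), and its relative Cux1 averaged 41.3 ± 2.62 against 113 ± 8.69 CPM (log2 fold change -1.45, adjusted p = 1.13e-11). Stard8, a GTPase-activating protein, was also lower in hippocampus (14 ± 1.11 against 57 ± 6.6 CPM, log2 fold change -2.02, adjusted p = 4.02e-10). Mdga1, a membrane-anchored regulator of synaptic adhesion, was the 1 member that was higher in hippocampus (125 ± 22.7 against 43.3 ± 9.57 CPM, log2 fold change 1.54, adjusted p = 1.97e-10).

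In layer 4, 4 of 5 genes were lower in hippocampus (median -1.01), among them the Wnt potentiator Rspo1 (0.714 ± 0.25 against 7.61 ± 1.22 CPM, log2 fold change -3.40, adjusted p = 2.89e-08) and the potassium channel Kcnh5 (4.09 ± 1.24 against 16.7 ± 2.24 CPM, log2 fold change -2.05, adjusted p = 2.13e-07). Scnn1a, an epithelial sodium channel subunit used to target layer 4 cells, was instead higher in hippocampus (7.65 ± 0.734 against 4.37 ± 0.662 CPM, log2 fold change 0.81, adjusted p = 1.43e-06). In layer 6, 8 of 9 were lower (median -1.21). Foxp2, the forkhead factor of corticothalamic cells, ranged from 0.923 to 1.77 CPM in hippocampus (median 1.69) and from 9.42 to 19.5 CPM in cortex (median 16.9) (log2 fold change -3.34, SE 0.08, adjusted p = 1.88e-11), and its lowest cortical library was that of mouse 17, which also had the lowest striatal sum. Foxp2 is expressed in striatal neurons too. The calcium-binding synaptotagmin Syt6 (10.6 ± 1.15 against 33.4 ± 8.07 CPM, log2 fold change -1.64, adjusted p = 2.28e-08), the complexin Cplx3 of subplate-derived cells (3.26 ± 0.471 against 9.33 ± 1.03 CPM, log2 fold change -1.52, adjusted p = 1.12e-07) and Tbr1, the T-box factor of deep layers (49.2 ± 4.72 against 113 ± 5.74 CPM, log2 fold change -1.21, adjusted p = 1.82e-10), followed. Tle4, a corepressor, was the exception (67.9 ± 4.88 against 54.3 ± 6.95 CPM, log2 fold change 0.33, adjusted p = 0.000254).

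Of 10 layer 5 genes, 6 were higher and 4 lower in hippocampus (median 0.33). The 4 that were higher in cortex were Qrfpr, a neuropeptide receptor (1.29 ± 0.387 against 4.47 ± 0.476 CPM, log2 fold change -1.81, adjusted p = 1.68e-06), Deptor, an inhibitor of mTOR (16.5 ± 1.17 against 33.6 ± 2.51 CPM, log2 fold change -1.02, adjusted p = 1.65e-08), Rbp4, the retinol carrier (6.55 ± 1.1 against 11.8 ± 1.67 CPM, log2 fold change -0.85, adjusted p = 5.43e-06) and Batf3 (0.283 ± 0.0866 against 0.521 ± 0.0969 CPM, log2 fold change -0.88, adjusted p = 0.0112). The factors that specify subcerebral projection neurons were higher in hippocampus: Fezf2 ranged from 33.6 to 43.2 CPM in hippocampus (median 38.6) and from 16.9 to 22.8 CPM in cortex (median 20.4) (log2 fold change 0.95, SE 0.08, adjusted p = 6.62e-07) and Bcl11b, also called Ctip2, ranged from 129 to 170.2 CPM in hippocampus (median 137) and from 64.1 to 103 CPM in cortex (median 74.2) (log2 fold change 0.88, SE 0.04, adjusted p = 6.02e-09). Etv1 (116 ± 7.88 against 58.7 ± 4.78 CPM, log2 fold change 0.98, adjusted p = 9.51e-09) and Parm1 (133 ± 4.51 against 74.5 ± 4.01 CPM, log2 fold change 0.84, adjusted p = 3.06e-09) showed differences of like size. Bcl11b is also known from CA1 and dentate neurons.

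Of 20 forebrain transcription factors, 11 were higher and 7 lower in hippocampus (median 0.44). The 3 neuronal basic helix-loop-helix factors of the list were higher in hippocampus: Neurod6 ranged from 159 to 198 CPM in hippocampus (median 188) and from 33.7 to 53.8 CPM in cortex (median 45.6) (log2 fold change 2.0, SE 0.06, adjusted p = 1.29e-10), Neurod2 averaged 111 ± 18.2 against 48.4 ± 1.73 CPM (log2 fold change 1.18, adjusted p = 2.6e-08) and Neurod1, which drives granule cell birth, 19.8 ± 0.592 against 10.7 ± 0.678 CPM (log2 fold change 0.88, adjusted p = 1.78e-08). Meis2, which striatal cells also express, was lower in hippocampus (49.4 ± 8.68 against 127 ± 14.3 CPM, log2 fold change -1.37, adjusted p = 2.16e-09). The paired homeobox genes split: Emx1 was lower (5.63 ± 0.385 against 10.5 ± 2.09 CPM, log2 fold change -0.88, adjusted p = 7.15e-06) and Emx2 higher (12.4 ± 1.7 against 7.79 ± 0.499 CPM, log2 fold change 0.66, adjusted p = 9.93e-06) in hippocampus. Nr2f1 and Nr2f2, the COUP-TF receptors that pattern the cortex, also differed in direction (log2 fold changes -0.27 and 0.41, adjusted p = 0.000127 and 0.00175), with overlap of the groups in both. Lhx2 (60.5 ± 2.93 against 58.7 ± 4.88 CPM, adjusted p = 0.319) and Lef1 (5.54 ± 0.632 against 6.19 ± 0.679 CPM, adjusted p = 0.108) did not pass the test, although Lef1 passed without mouse 17 (adjusted p = 0.0422).

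Interneuron markers and neuropeptides leaned to the cortex: of 22, 5 were higher and 13 lower in hippocampus (median -0.31). Striatal markers were also higher in cortex, as given above, and the part of striatal tissue in this lean was not tested. Vip, the peptide of a disinhibitory interneuron class, ranged from 13.5 to 16.5 CPM in hippocampus (median 14.9) and from 31.7 to 40.5 CPM in cortex (median 35.7) (log2 fold change -1.26, SE 0.06, adjusted p = 1.01e-08). Npy, neuropeptide Y, ranged from 20.8 to 30.8 CPM in hippocampus (median 26.3) and from 48.2 to 63.7 CPM in cortex (median 58.6) (log2 fold change -1.11, SE 0.04, adjusted p = 8.08e-10), while its receptor Npy2r was higher in hippocampus as given above. The stress peptide Crh (1.26 ± 0.246 against 4.28 ± 0.671 CPM, log2 fold change -1.76, adjusted p = 9.03e-08), the tachykinin Tac2 (1.61 ± 0.558 against 4.52 ± 0.498 CPM, log2 fold change -1.52, adjusted p = 5.74e-06) and the opioid precursor Pdyn (16 ± 1.52 against 38.3 ± 6.03 CPM, log2 fold change -1.25, adjusted p = 1.29e-08) were lower in hippocampus. Penk, the enkephalin precursor (21.8 ± 2.56 against 144 ± 37.6 CPM, log2 fold change -2.69, adjusted p = 7.88e-10), and Tac1, the substance P precursor (7.1 ± 0.964 against 31.1 ± 8.29 CPM, log2 fold change -2.10, adjusted p = 1.28e-08), showed the steepest cortical excess of the list, and both are also striatal markers. Pvalb, the calcium buffer of fast-spiking basket cells, averaged 20.6 ± 2.83 against 33.3 ± 4.92 CPM (log2 fold change -0.69, adjusted p = 1.68e-05) and the vesicular GABA transporter Slc32a1 48.3 ± 4.79 against 81 ± 10.4 CPM (log2 fold change -0.74, adjusted p = 2.26e-07). Sst (133 ± 22.3 against 144 ± 14.9 CPM, adjusted p = 0.15) and Gad1 (392 ± 26.4 against 427 ± 45.9 CPM, adjusted p = 0.0551) did not pass the test. Gad1 was called lower in 7 alternatives, DESeq2 (adjusted p = 0.0247), RLE factors, both other count filters and the fits without mouse 15, 17 or 18, and Sst with no filter and without mouse 18. Nos1, the neuronal nitric oxide synthase, (217 ± 10.9 against 108 ± 13.7 CPM, log2 fold change 1.01, adjusted p = 1.46e-08), Htr3a, the ionotropic serotonin receptor (11.2 ± 1.92 against 5.86 ± 0.691 CPM, log2 fold change 0.93, adjusted p = 2.83e-07), and Ndnf, of neurogliaform cells (32.1 ± 4.91 against 21.1 ± 1.85 CPM, log2 fold change 0.60, adjusted p = 1.25e-06), were higher in hippocampus. Genes used by neurons in general stayed within a log2 fold change of -0.54 to 0.23, with 4 were higher and 5 lower in hippocampus of 10.

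Glutamate receptors differed subunit by subunit. Of 16 ionotropic receptor genes, 7 were higher and 6 lower in hippocampus (median -0.03). Gria1, the GluA1 subunit of AMPA receptors, ranged from 1308 to 1455 CPM in hippocampus (median 1353) and from 394 to 479.8 CPM in cortex (median 419) (log2 fold change 1.68, SE 0.03, adjusted p = 3.32e-12), whereas Gria2 averaged 1118 ± 52.1 against 819 ± 54.1 CPM (log2 fold change 0.45, adjusted p = 4.85e-06), and Gria3 (258 ± 11.6 against 299 ± 12 CPM, log2 fold change -0.21, adjusted p = 0.000254) and Gria4 (81.4 ± 4.24 against 129 ± 7.61 CPM, log2 fold change -0.67, adjusted p = 4.3e-08) were lower in hippocampus. Per kilobase of exon, Gria1 reached 225 CPM per kb in hippocampus, above Gria2 at 71.9, while in cortex Gria1 stood at 70.3 and Gria2 at 52.7 CPM per kb. The divisor was all annotated exon sequence of a gene and not the length of the transcripts expressed. In cortex the order of these 2 genes depends on it, since Gria2 was above Gria1 by CPM alone. Among NMDA receptor subunits, Grin2a (416 ± 32.8 against 221 ± 9.93 CPM, log2 fold change 0.91, adjusted p = 1.03e-08) and Grin2b (796 ± 77.2 against 625 ± 39.9 CPM, log2 fold change 0.35, adjusted p = 2.22e-05) were higher, Grin2c (-0.30) and Grin2d (-0.29) were lower by log2 fold change, and the obligatory Grin1 did not pass the test (534 ± 21.6 against 556 ± 36.1 CPM, adjusted p = 0.215) except without mouse 7 (adjusted p = 0.023). Among kainate receptor subunits Grik4 was the most hippocampal, Grik2 was higher (log2 fold change 0.30, adjusted p = 6.65e-05) and Grik3 lower (log2 fold change -0.67, adjusted p = 3.68e-07).

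Of 7 metabotropic glutamate receptors, 3 were higher and 3 lower in hippocampus. Grm5, a postsynaptic receptor, was higher (332 ± 18.2 against 219 ± 13 CPM, log2 fold change 0.60, adjusted p = 3.92e-07), and the presynaptic receptors Grm4 (12.7 ± 2.08 against 31.8 ± 3.58 CPM, log2 fold change -1.33, adjusted p = 1.49e-08) and Grm8 (8.45 ± 0.578 against 14.9 ± 1.6 CPM, log2 fold change -0.81, adjusted p = 2.13e-06) were lower, as was Grm3 (log2 fold change -0.69, adjusted p = 4.04e-09). Grm2 (log2 fold change 0.26, adjusted p = 0.0169) was higher with overlap, and its call was lost in the robust fit (adjusted p = 0.0503) and without mouse 16, 7 or 8 (adjusted p from 0.0575 to 0.0596). Grm7 did not pass (adjusted p = 0.581).

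**Figure D5:**
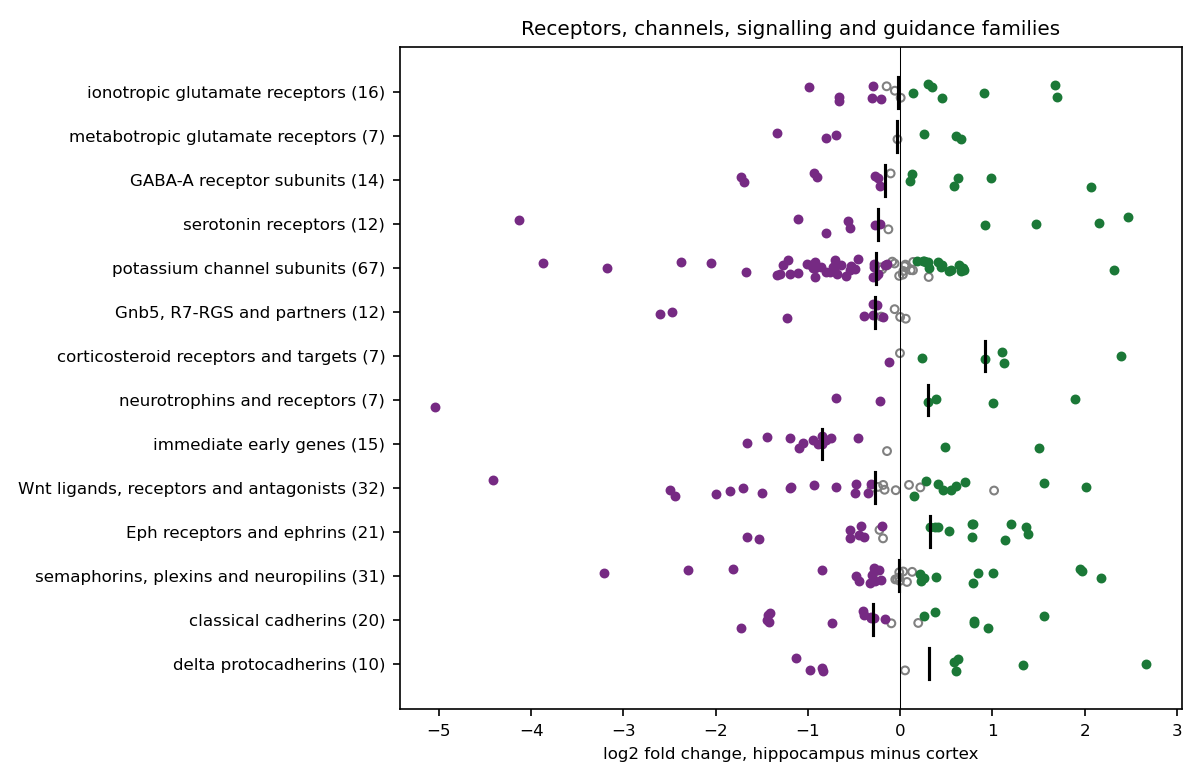
Log2 fold change (hippocampus minus cortex) of each tested member of 14 receptor, channel, signalling and guidance families, drawn as in the plot of marker lists, with the number tested in brackets. Within most families members lie on both sides of 0, while the immediate early genes and the Gnb5 group lie mostly to the left.

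Of 14 GABA-A receptor subunits, 6 were higher and 7 lower in hippocampus (median -0.16). Gabra5, whose receptors carry tonic inhibition outside synapses, ranged from 185 to 212 CPM in hippocampus (median 205) and from 43.9 to 58.5 CPM in cortex (median 46.3) (log2 fold change 2.07, SE 0.05, adjusted p = 3.23e-11), and Gabra2 averaged 204 ± 51.6 against 102 ± 21.1 CPM (log2 fold change 0.98, adjusted p = 2.32e-08). Gabrd, the delta subunit of another extrasynaptic receptor, ranged from 18.4 to 25.9 CPM in hippocampus (median 24.4) and from 70.6 to 82.1 CPM in cortex (median 75.3) (log2 fold change -1.69, SE 0.05, adjusted p = 9.71e-11), so the 2 extrasynaptic subunits differed in opposite directions. Gabra3 (88.6 ± 6.47 against 169 ± 10.4 CPM, log2 fold change -0.94, adjusted p = 2.26e-09) was lower in hippocampus. The beta subunit Gabrb1 (log2 fold change 0.62, adjusted p = 6.94e-06) was higher, and Gabrb2 did not pass (adjusted p = 0.119) but was called lower with no filter and without mouse 8.

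Of 14 serotonin receptor genes, 12 were tested, and 4 were higher and 7 lower in hippocampus. Htr1a, the inhibitory receptor of pyramidal cells and raphe neurons, ranged from 38 to 46.1 CPM in hippocampus (median 42.5) and from 13.7 to 18.7 CPM in cortex (median 15.2) (log2 fold change 1.47, SE 0.07, adjusted p = 3.89e-09). Htr4 (16 ± 2.03 against 3.61 ± 0.766 CPM, log2 fold change 2.15, adjusted p = 2.67e-09) and Htr5b (6.17 ± 1.05 against 1.13 ± 0.417 CPM, log2 fold change 2.47, adjusted p = 2.76e-08) were the steepest on the hippocampal side. Htr2a, the receptor of deep-layer pyramidal cells on which psychedelic drugs act, ranged from 15.1 to 18.1 CPM in hippocampus (median 16.9) and from 30.6 to 38 CPM in cortex (median 37.3) (log2 fold change -1.10, SE 0.05, adjusted p = 7.92e-09), and Htr1d was higher in cortex at a low level (0.181 ± 0.0916 against 3.17 ± 0.645 CPM, log2 fold change -4.13, adjusted p = 6.66e-09). Htr2b and Htr3b were below the count filter, with no library above 0.16 CPM.

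Potassium channel subunits, the largest family examined, leaned to the cortex: of 67 tested of 76, 16 were higher and 37 lower in hippocampus (median -0.26). Their summed level ranged from 4453 to 4851 CPM in hippocampus and from 5264 to 5445 CPM in cortex. Kcng2, a silent subunit that modifies Kv2 channels, was the 1 member with a more than 2-fold excess in hippocampus, ranging from 14.4 to 18.7 CPM in hippocampus (median 16.6) and from 2.47 to 4.14 CPM in cortex (median 3.33) (log2 fold change 2.32, SE 0.09, adjusted p = 1.24e-09). On the cortical side Kcnh4, of the ether-a-go-go family, ranged from 1.79 to 4.78 CPM in hippocampus (median 3.89) and from 27.8 to 35.6 CPM in cortex (median 33.2) (log2 fold change -3.18, SE 0.12, adjusted p = 7.14e-10), and the voltage-gated Kcna5 (1.04 ± 0.266 against 5.5 ± 1.43 CPM, log2 fold change -2.38, adjusted p = 6.54e-08) and the sodium-activated Kcnt1 (88.2 ± 9.04 against 280.3 ± 13 CPM, log2 fold change -1.67, adjusted p = 4.82e-11) followed. Kcnk15 had a large fitted difference (log2 fold change -3.87, adjusted p = 2.54e-05), but its cortical level was at most 0.458 CPM. Kcnd2 (log2 fold change 0.55, adjusted p = 8.64e-08), of the A-type current of dendrites, and Kcnn2 (log2 fold change 0.66, adjusted p = 4.1e-08), of the afterhyperpolarisation, were higher in hippocampus. Kcnj6, the GIRK2 channel opened by G protein beta-gamma dimers, was higher too (41.5 ± 5.82 against 26.7 ± 3.1 CPM, log2 fold change 0.63, adjusted p = 6.62e-06).

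The gene deleted in the mutants of the series and its partners were compared in these wild-type mice. Gnb5 encodes the beta subunit that pairs with regulators of G protein signalling of the R7 family. Gnb5 ranged from 95.9 to 108 CPM in hippocampus (median 101) and from 121 to 146 CPM in cortex (median 134) (log2 fold change -0.39, SE 0.04, adjusted p = 2.19e-06). Of the 12 genes of the group, 8 were lower and 0 higher in hippocampus, and 4 did not pass the test (median -0.27). Rgs6 ranged from 12.8 to 17.8 CPM in hippocampus (median 14.7) and from 68.5 to 92.3 CPM in cortex (median 86) (log2 fold change -2.47, SE 0.06, adjusted p = 3.5e-11), and Rgs9, a striatal marker whose lowest cortical library was that of mouse 17, from 8.33 to 14 CPM in hippocampus (median 12.6) and from 35.2 to 110.0 CPM in cortex (median 76.6) (log2 fold change -2.60, SE 0.11, adjusted p = 2.9e-09). Rgs7 (72.5 ± 4.06 against 88.8 ± 3.21 CPM, log2 fold change -0.29, adjusted p = 2.08e-05) and its membrane receptor partner Gpr158 (172 ± 9.05 against 211 ± 7.92 CPM, log2 fold change -0.29, adjusted p = 3.5e-05) differed little, and Rgs11 (54.5 ± 3.73 against 54.6 ± 4.13 CPM, adjusted p = 0.998) and the anchor Rgs7bp (368 ± 21.5 against 353 ± 23 CPM, adjusted p = 0.212) did not pass. Among the other beta subunits Gnb4 was lower in hippocampus (19.7 ± 1.86 against 46.3 ± 3.13 CPM, log2 fold change -1.23, adjusted p = 4.42e-09). Gnb1 (log2 fold change -0.18, adjusted p = 0.000117) and Gnb2 (log2 fold change -0.25, adjusted p = 0.000281) were lower by less, and Gnb3 was near the count filter in both regions (0.258 ± 0.122 against 0.291 ± 0.063 CPM, adjusted p = 0.553).

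Of 7 corticosteroid receptors and targets, 5 were higher and 1 lower in hippocampus (median 0.92). Nr3c2, the mineralocorticoid receptor that the hippocampus is known to hold at high level, ranged from 187 to 257 CPM in hippocampus (median 223) and from 36.4 to 48.5 CPM in cortex (median 42.3) (log2 fold change 2.39, SE 0.05, adjusted p = 1.13e-11), whereas the glucocorticoid receptor Nr3c1 was slightly lower (108 ± 6.93 against 117 ± 4.56 CPM, log2 fold change -0.12, adjusted p = 0.0198), a call that was lost without mouse 18. Hsd11b1, which regenerates active corticosterone (26 ± 3.62 against 11.9 ± 1.48 CPM, log2 fold change 1.13, adjusted p = 7.86e-09), and the chaperone Fkbp5, itself induced by glucocorticoids (65.9 ± 10 against 30.5 ± 3.8 CPM, log2 fold change 1.11, adjusted p = 1.18e-10), were higher. Sgk1, another induced gene, was higher by less (log2 fold change 0.24, adjusted p = 0.00115, and 0.376 in the fit with no replicate block), and Tsc22d3 did not pass the test (adjusted p = 0.971).

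Of 7 neurotrophins and receptors, 4 were higher and 3 lower in hippocampus. The ligand Bdnf was higher in hippocampus and ranged from 37.2 to 46.2 CPM in hippocampus (median 40.8) and from 25.9 to 33.1 CPM in cortex (median 31.9) (log2 fold change 0.39, SE 0.06, adjusted p = 9.29e-05), and Ntf3 is given with the CA2 genes. The receptors Ntrk2 (701 ± 27.1 against 814 ± 37.2 CPM, log2 fold change -0.21, adjusted p = 1.88e-05) and Ntrk3 (335 ± 25.3 against 271 ± 10.3 CPM, log2 fold change 0.30, adjusted p = 0.000156) differed in opposite directions. Of 32 Wnt pathway genes tested, 9 were higher and 15 lower in hippocampus (median -0.27), against 29.2% and 27.8% of all genes tested. Besides Dkkl1, the ligands Wnt9a (4.43 ± 0.935 against 15.9 ± 3.28 CPM, log2 fold change -1.84, adjusted p = 6.14e-09) and Wnt10a (1.85 ± 0.148 against 7.43 ± 0.909 CPM, log2 fold change -2.0, adjusted p = 3.57e-09) were lower in hippocampus, and Dkk3 (384 ± 23.6 against 235 ± 16.1 CPM, log2 fold change 0.70, adjusted p = 3.9e-09) and Wnt7b (49.8 ± 4.39 against 34.1 ± 5.28 CPM, log2 fold change 0.55, adjusted p = 5.41e-06) were higher. Wnt11 (0.757 ± 0.148 against 0.185 ± 0.0639 CPM, log2 fold change 2.02, adjusted p = 2.17e-05) and Wnt2b (0.437 ± 0.159 against 2.37 ± 0.357 CPM, log2 fold change -2.44, adjusted p = 4.17e-07) differed by more at low levels.

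Immediate early genes, which neurons switch on within minutes of activity, were mostly lower in hippocampus: of 15, 2 were higher and 12 lower in hippocampus (median -0.85). Egr1, a zinc finger factor, ranged from 69.8 to 216 CPM in hippocampus (median 144) and from 286 to 442 CPM in cortex (median 347) (log2 fold change -1.45, SE 0.13, adjusted p = 1.27e-06). Fos (21.7 ± 14.1 against 45.6 ± 23.5 CPM, log2 fold change -1.19, adjusted p = 3.84e-06), Npas4 (17.3 ± 10.5 against 34.8 ± 15.9 CPM, log2 fold change -1.09, adjusted p = 1.03e-05) and Arc, a synaptic capsid-like protein, (157 ± 79.3 against 290.2 ± 155 CPM, log2 fold change -0.85, adjusted p = 4.35e-07) were lower in hippocampus in 6 of 6 mice, although the groups overlapped, and the calls of Arc and Fos were lost in the fit with no replicate block (adjusted p = 0.0827 and 0.081). The orphan nuclear receptor Nr4a3 ranged from 102 to 157 CPM in hippocampus (median 111) and from 22.3 to 73.2 CPM in cortex (median 38.4) (log2 fold change 1.51, SE 0.13, adjusted p = 7.79e-07), and Nr4a2 was higher as well (74 ± 20.9 against 51.7 ± 9.02 CPM, log2 fold change 0.49, adjusted p = 3.19e-05), while the third relative Nr4a1 was lower (84.7 ± 34.4 against 153 ± 49.7 CPM, log2 fold change -0.89, adjusted p = 1.05e-07). The summed level of the list ranged from 491 to 1222 CPM in hippocampus and from 797 to 1909 CPM in cortex. Mouse 16 had the highest sum in both regions, and mice 8 and 17 had the lowest 2 in both. In the fit with no replicate block, which ignores this sharing within mice, 8 rather than 12 members were called lower. In mice that lack Gnb5, 1 and 2 of the 15 genes were called higher and lower in hippocampus (median -0.65). That fit called 18% of all genes tested, against 56.9% in wild-type mice, and 43.4% without knockout mice 14 and 3, so the numbers of calls are not directly comparable.

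Adhesion and guidance families held some of the steepest contrasts between close relatives. Of 20 classical cadherins tested, 6 were higher and 12 lower in hippocampus (median -0.30). Cdh9, which specifies mossy fibre synapses, ranged from 54.4 to 76 CPM in hippocampus (median 66.9) and from 18.1 to 26.6 CPM in cortex (median 21.7) (log2 fold change 1.55, SE 0.05, adjusted p = 1.79e-10), and Cdh8 (76.6 ± 5.75 against 39.7 ± 3.6 CPM, log2 fold change 0.95, adjusted p = 3.03e-09) was higher as well. Cdh22 (16.5 ± 2.11 against 54.8 ± 7.59 CPM, log2 fold change -1.72, adjusted p = 7.37e-09), Cdh6 (12.7 ± 1.21 against 34.6 ± 2.85 CPM, log2 fold change -1.44, adjusted p = 1.48e-08), Cdh7 (9.32 ± 1.14 against 25.1 ± 2.11 CPM, log2 fold change -1.43, adjusted p = 1.45e-08) and Cdh4 (16.2 ± 0.545 against 43.3 ± 3.56 CPM, log2 fold change -1.41, adjusted p = 5.45e-10) were higher in cortex. Of 10 delta protocadherins, 5 were higher and 4 lower in hippocampus (median 0.32), with Pcdh20 far on the hippocampal side, ranging from 161 to 189 CPM in hippocampus (median 176) and from 23.4 to 33.6 CPM in cortex (median 28.1) (log2 fold change 2.67, SE 0.07, adjusted p = 5e-11), and Pcdh11x on the cortical side (8.25 ± 2.08 against 17.8 ± 2.71 CPM, log2 fold change -1.12, adjusted p = 2.44e-06). Pcdh19, whose loss causes an epilepsy, was also higher in hippocampus (114 ± 15.9 against 45.3 ± 2.77 CPM, log2 fold change 1.33, adjusted p = 3.47e-10).

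Of 21 Eph receptors and ephrins tested, 11 were higher and 8 lower in hippocampus (median 0.33). The receptors Epha7 (172 ± 23.2 against 65.3 ± 4.16 CPM, log2 fold change 1.39, adjusted p = 2.26e-09), Epha4 (479 ± 44.1 against 185 ± 8.42 CPM, log2 fold change 1.37, adjusted p = 8.99e-10) and Epha6 (54.6 ± 14.8 against 24.3 ± 2.82 CPM, log2 fold change 1.14, adjusted p = 2.29e-06) were more than 2-fold higher in hippocampus. The ligand Efna5, which binds EphA receptors, was lower there, ranging from 5.83 to 10.1 CPM in hippocampus (median 7.21) and from 22.1 to 24.4 CPM in cortex (median 24) (log2 fold change -1.66, SE 0.08, adjusted p = 8.93e-09). Of 31 semaphorins, plexins and neuropilins, 10 were higher and 12 lower in hippocampus (median -0.01), against 29.2% and 27.8% of all genes tested. Nrp1, the co-receptor through which secreted class 3 semaphorins act, ranged from 85.3 to 102 CPM in hippocampus (median 94.8) and from 16.3 to 26.5 CPM in cortex (median 20.7) (log2 fold change 2.18, SE 0.06, adjusted p = 7.73e-11), and its repulsive ligand Sema3a ranged from 2.51 to 4.29 CPM in hippocampus (median 3.47) and from 28.7 to 36.2 CPM in cortex (median 33.5) (log2 fold change -3.21, SE 0.10, adjusted p = 1.96e-10). This receptor and its ligand were higher in opposite regions, and so were Sema3e (99.9 ± 9.44 against 25.4 ± 2.02 CPM, log2 fold change 1.97, adjusted p = 3.65e-11) and its receptor Plxnd1 (40.2 ± 6.59 against 196 ± 12.6 CPM, log2 fold change -2.29, adjusted p = 1.13e-10). Sema5a (178 ± 18.3 against 46.3 ± 5.39 CPM, log2 fold change 1.94, adjusted p = 1.21e-10) and Plxna4 (296 ± 27 against 147 ± 6.84 CPM, log2 fold change 1.01, adjusted p = 1.53e-09) were higher in hippocampus.

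Of 10 astrocyte genes, 4 were higher and 5 lower in hippocampus (median -0.02). Gfap, the intermediate filament of astrocytes, ranged from 250.4 to 382 CPM in hippocampus (median 313) and from 93.8 to 164 CPM in cortex (median 141) (log2 fold change 1.21, SE 0.06, adjusted p = 4.18e-09), and Aldh1l1 was lower (49.1 ± 4.02 against 73.7 ± 4.12 CPM, log2 fold change -0.59, adjusted p = 7.03e-08). The other called astrocyte genes differed by log2 fold changes of -0.15 (the glutamate transporter Slc1a2) to 0.27 (the water channel Aqp4). Of 13 oligodendrocyte genes, 7 were higher and none was lower (median 0.24), with Ermn (50.2 ± 15.6 against 34.7 ± 4.21 CPM, log2 fold change 0.50, adjusted p = 0.000427) in front, and 4 were higher in the robust fit. In hippocampus, mouse 17 had the highest sum of the list, 5071 CPM against 3069 to 4148 CPM in the other 5. Microglial genes (7 of 10 lower, median -0.20) and endothelial genes (6 of 7 lower, median -0.21) were slightly lower in hippocampus, and the endothelial count fell to 2 in the fit with no replicate block. Of 10 genes of adult neurogenesis, 2 were higher and 2 lower in hippocampus, against 29.2% and 27.8% of all genes tested. Dcx, the doublecortin of young neurons, was lower in hippocampus (28.2 ± 5.78 against 59.6 ± 10.6 CPM, log2 fold change -1.08, adjusted p = 2.77e-08). The cycling gene Mki67 (1.2 ± 0.256 against 1.27 ± 0.567 CPM, adjusted p = 0.913) did not pass, and Hopx, of quiescent precursors and astrocytes, was higher (40 ± 3.65 against 22.4 ± 2.75 CPM, log2 fold change 0.84, adjusted p = 1.49e-07).

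Markers of ventricle-lining tissue were compared as well, and whether such tissue was carried into the libraries was not tested. Of 9 choroid plexus genes, 4 were higher in hippocampus and none was lower (median 1.33), against 2 higher in the robust fit and 7 with no filter on low counts. In the mice that lack Gnb5 the median of the list was -0.77. Ttr, the transthyretin that the choroid plexus secretes, ranged from 4.25 to 1408 CPM in hippocampus (median 55.3) and from 6.14 to 261 CPM in cortex (median 23.4) and did not pass the test (log2 fold change 1.38, adjusted p = 0.318) except with no filter on low counts (adjusted p = 1.22e-12). The hippocampal libraries of mice 7 and 17 and the cortical library of mouse 16 were the highest. Kl, which encodes klotho, ranged from 26.9 to 106 CPM in hippocampus (median 28.8) and from 4.14 to 16.4 CPM in cortex (median 5.79) (log2 fold change 2.47, SE 0.33, adjusted p = 5.21e-05), and in the 4 hippocampal libraries with little Ttr it still stood at 26.9 to 29.3 CPM. Of 5 ependymal genes, 4 were higher (median 0.74), at a summed level of 7.28 to 17 CPM in hippocampus and 6.73 to 7.83 CPM in cortex, and 2 were higher without mouse 17. Thalamic markers showed 2 higher and 4 lower of 7, with sums of 82.1 to 101 CPM in hippocampus and 94.2 to 103 CPM in cortex. The cerebellar granule cell gene Gabra6 (0.581 CPM at most in hippocampus, 0.322 in cortex) and the Purkinje cell gene Pcp2 (0.185 and 0.18 CPM) were below the count filter. Of 6 meningeal genes, 2 were higher, Dcn (61.8 ± 13.9 against 19.4 ± 1.96 CPM, log2 fold change 1.65, adjusted p = 5.35e-08) and Lum (6.18 ± 1.81 against 2.46 ± 0.436 CPM, log2 fold change 1.31, adjusted p = 2.04e-07), both matrix proteoglycans, and 3 were lower.

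Among non-coding genes with assigned names, Mirt1 (10.9 ± 3.13 against 3.37 ± 1.11 CPM, log2 fold change 1.70, adjusted p = 1.36e-08), Emx2os (9.24 ± 2.01 against 3.78 ± 0.892 CPM, log2 fold change 1.29, adjusted p = 1.7e-07) and Mir99ahg (7.98 ± 0.928 against 4.87 ± 0.478 CPM, log2 fold change 0.71, adjusted p = 3.42e-06) led in hippocampus. Emx2os overlaps Emx2 on the opposite strand, and since the strand setting of the counting is not given in the sources used here, their reads cannot be told apart with certainty. In cortex, transcripts annotated as processed and not as coding, from Ptprv (0.27 ± 0.0892 against 15.3 ± 3.25 CPM, log2 fold change -5.81, adjusted p = 1.13e-11) and Sptbn5 (2.82 ± 0.928 against 6.62 ± 1.12 CPM, log2 fold change -1.25, adjusted p = 3.82e-06), led together with the nuclear RNA Malat1, which ranged from 267 to 357 CPM in hippocampus (median 293) and from 506 to 724 CPM in cortex (median 549.7) (log2 fold change -0.98, SE 0.08, adjusted p = 6.13e-07). The Malat1 difference was not called in mice that lack Gnb5 (log2 fold change -0.40, adjusted p = 0.166), in a fit that called 18% of the genes tested. That fit includes the cortical libraries of knockout mice 14 and 3, which stood apart as given below. The difference between genotypes did not pass its own test either (adjusted p = 0.568).

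The regional comparison was repeated in 6 other mice, in which exon 3 of both Gnb5 alleles was deleted (Gnb5-/-). Their cortical libraries of mice 14 and 3 stood apart, with a median r to the other cortical libraries of 0.895 and 0.968 against at least 0.988 for the rest. With all 6 pairs, 3187 of 17734 genes (18%) were called, and without those 2 mice 7758 of 17865 (43.4%). Of the 598 genes at least 2-fold higher in the hippocampus of wild-type mice, 569 were tested in the knockout pairs, 563 had the same sign and 458 were also called, and none was called in the opposite direction. Of the 932 genes at least 2-fold higher in the wild-type cortex, 858 were tested, 841 had the same sign and 644 were called, again with none opposite. Without mice 14 and 3, the called numbers were 528 of 578 and 821 of 894. For the 4 marker genes the knockout log2 fold changes were 3.64 (Prox1), 2.51 (Zbtb20), -2.36 (Lamp5) and -1.29 (Rorb), each with an adjusted p of 0.00237 or less.

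Whether the regional difference depended on genotype was tested as an interaction in all 24 libraries. None of 18676 genes was called by edgeR (smallest adjusted p = 0.568), with 1076 at an unadjusted p below 0.05, and none was called without mice 14 and 3 (1206 unadjusted). DESeq2 called 3 genes, Crhbp, Glt8d2 and Filip1. Crhbp, the binding protein of corticotropin-releasing hormone, was slightly higher in the hippocampus of wild-type mice (24.2 ± 5.19 against 20.2 ± 1.51 CPM, log2 fold change 0.24, adjusted p = 0.0119) and averaged 14.8 ± 3.21 in hippocampus against 20.2 ± 4.17 CPM in cortex of knockout mice, a difference between genotypes of -0.68 on the log2 scale (DESeq2 adjusted p = 0.00409, edgeR adjusted p = 0.568). The wild-type call of Crhbp was lost in the fit with no replicate block (adjusted p = 0.0623).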

How the data were processed

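The authors deposited 1 file of raw counts per library, made with cutadapt 1.8, STAR 2.5.3a on GRCm38 and HTSeq 0.9.1 on Ensembl release 92 genes, from stranded total RNA libraries. The 5 summary rows were dropped. Of 53715 identifiers, 53620 matched GENCODE M21, which gave symbols, types, coordinates and exon lengths. Counts were TMM-normalised and filtered (filterByExpr, minimum 10), and regions were compared with edgeR 4.0.16 (R 4.3.3), quasi-likelihood test, with mouse as a block, and Benjamini-Hochberg adjustment over all genes tested. The mouse numbers in the titles pair the libraries, and same-mouse libraries deviated together (r from 0.259 to 0.488). Single genes were tested by exact sign flips of log2 CPM (prior count 2). Alternatives were DESeq2 1.42.0, RLE factors, other filters, no block, robust fits and fits without 1 mouse. Knockout fits without mice 14 and 3 and the test of differences between mice were added after the data were seen.

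Members and lists were chosen with earlier results of these data known. Genes were named by rule: the 4 markers, up to 4 called members of largest change in a list (lists of up to 12 could be completed), and the 10 protein-coding and 3 non-coding genes of largest change in each direction without overlap, at 5 CPM or more in the higher region and with an assigned symbol. Further members named within longer lists were chosen after their values were seen, as were Crhbp, Glt8d2 and Filip1. Some genes that these rules named are not reported here, though counts over lists include them. The fits were also run on simulated counts in which only a small set of genes carried a known effect. In wild-type mice 56.9% of genes were called, so that run does not test the scaling under widespread differences. Files of 42 other libraries were not used here.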

Additional observations from a re-analysis of the deposited data

Results flagged for a closer look

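Dixon's test for a single far value was applied to the CPM of each gene named above in each region (6 libraries each). Of 394 groups, 31 (7.87%) held a sample whose gap to its neighbour exceeded the 95% critical share of the group's range for 6 values, where chance gives about 1 in 20 groups. No explanation was tested for any of them.

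The cortical library of mouse 7 stood apart from the others for Gria3 at 322 CPM (above the other 5, 289 to 299) and Vwa3b at 1.49 CPM (above the other 5, 0.479 to 0.744). The hippocampal library of mouse 7 stood apart from the others for Deptor at 14.3 CPM (below the other 5, 16.3 to 17.4) and Ttr at 1408 CPM (above the other 5, 4.25 to 486). The cortical library of mouse 8 stood apart from the others for Cdh6 at 29.1 CPM (below the other 5, 34.7 to 37.5), Cplx3 at 11.3 CPM (above the other 5, 8.42 to 9.42), Efna5 at 22.1 CPM (below the other 5, 23.8 to 24.4), Htr1a at 18.7 CPM (above the other 5, 13.7 to 15.6), Spock1 at 292 CPM (above the other 5, 262 to 271) and Wnt7b at 44.2 CPM (above the other 5, 29.9 to 34.8). The hippocampal library of mouse 8 stood apart from the others for Gnb4 at 16.3 CPM (below the other 5, 19.4 to 21.2), Gria1 at 1455 CPM (above the other 5, 1308 to 1360.5), Prox1 at 174 CPM (above the other 5, 118 to 137) and Tac2 at 2.69 CPM (above the other 5, 1.1 to 1.58). The cortical library of mouse 15 stood apart from the others for Bdnf at 25.9 CPM (below the other 5, 31.6 to 33.1) and Htr2a at 30.6 CPM (below the other 5, 35.7 to 38). The hippocampal library of mouse 15 stood apart from the others for Cplx3 at 4.15 CPM (above the other 5, 2.83 to 3.31), Dcx at 39.7 CPM (above the other 5, 24.5 to 28.5), Emx2 at 9.17 CPM (below the other 5, 12.2 to 13.7), Lefty1 at 5.45 CPM (below the other 5, 7.82 to 8.63) and Lum at 9.62 CPM (above the other 5, 4.64 to 6.31). The cortical library of mouse 16 stood apart from the others for Rgs11 at 62.3 CPM (above the other 5, 50.5 to 54.6). The hippocampal library of mouse 16 stood apart from the others for Malat1 at 357 CPM (above the other 5, 267 to 296) and Man1a at 91.7 CPM (above the other 5, 80.1 to 83). The hippocampal library of mouse 17 stood apart from the others for Amigo2 at 40.5 CPM (above the other 5, 25 to 29), Ermn at 80.6 CPM (above the other 5, 36.8 to 50.8) and Foxp2 at 0.923 CPM (below the other 5, 1.53 to 1.77). The hippocampal library of mouse 18 stood apart from the others for Crhbp at 34.7 CPM (above the other 5, 20.9 to 22.7), Iyd at 1.41 CPM (below the other 5, 3.76 to 4.75), Pvalb at 25.9 CPM (above the other 5, 18.3 to 20.8) and Tac1 at 8.89 CPM (above the other 5, 6.17 to 7.19).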

How the results depend on the processing

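Directions held for 193 of 197 named genes under all alternatives, and 180 also kept their call. Many of these genes were named because of a large called change, and the alternatives reuse the same libraries. Their stability therefore says little about all genes tested. The count of 10184 called genes stayed within 1.5 times under all of them, with 4509 to 5123 higher and 4463 to 5064 lower when 1 mouse was left out. At a fold of 2 or more, 387 genes were higher and 591 lower with at least 10 counts in every library (16092 tested), and 1422 were lower with no filter (33031 tested). In these fits the set of genes tested changed, and with it the scaling and the dispersions estimated on that set. Leaving out 1 mouse gave 562 to 619 higher and 923 to 973 lower. In the paired design, the fit with no replicate block called 4554 genes higher and 4262 lower, and it also ended the calls of Arc, Fos, Sgk1 and Crhbp. Without mice 14 and 3, 7758 genes were called in the knockout pairs, and DESeq2 called 3 genes in the interaction. The 4 genes that changed sign were not called in any of those settings: Rgs11 was at -0.0057 with DESeq2 and with RLE factors, -0.0063 with no filter, -0.021 with at least 10 counts in every library, -8.15e-05 with no replicate block and -0.030 to 0.031 when 1 mouse was left out. Tsc22d3 was at 0.0067 with no replicate block, and when 1 mouse was left out at -0.041 to 0.017, Mki67 at -0.165 to 0.116 and Grm7 at -0.058 to 0.0038. Of 80 counts of list members, 8 moved by more than 1.5 times under any alternative, all by 4 genes or fewer. The causes were not tested. Whole-tissue libraries do not resolve cells, and counts of genes at under about 1 CPM rest on few reads.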

Other observations

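Some genes differed between the 6 wild-type mice in the same way in both regions. In the paired fit, the mouse terms were called for 1349 of 17892 genes (7.54%), in a test added after the data were seen, and the genes below were picked from its leading results with the values in view. The processed pseudogene Rpsa-ps10 stood at 49.1 to 52.5 CPM in both regions of mice 7 and 15 and at 0.047 to 0.297 CPM in the other 4 (adjusted p = 5.61e-12). Gm15459 stood at 92.5 to 111 CPM in mice 8 and 15 and at 1.57 to 2.6 CPM in the others. Gm4735 and Eno1b, an enolase copy on another chromosome, split the mice in the same way: in mice 7, 15 and 17 they stood at 19.8 to 24.6 CPM and 43.7 to 53.3 CPM, and in the other 3 at 0.118 to 0.298 CPM and 0.0 to 0.118 CPM. Each of these splits was present in 12 of 12 libraries, whatever the region.

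Other genes fell on 3 levels. Tpm3-rs7, a copy related to the tropomyosin gene Tpm3, stood at 0.0916 to 0.225 CPM in mice 7, 15 and 16, at 20.8 to 23.2 CPM in mice 17 and 18 and at 42.1 to 44.4 CPM in mouse 8. Tpm3 itself ran the other way, at 96.1 to 106 CPM, 71.5 to 79.2 CPM and 44.3 to 48.6 CPM in the same 3 sets. The translation factor genes Eif3j1 and Eif3j2 formed a similar pair: Eif3j1 was lowest in mice 7 and 16 (1.47 to 1.73 CPM), where Eif3j2 was highest (8.85 to 11 CPM), and Eif3j2 was lowest in mice 17 and 18 (0.0456 to 0.0706 CPM), where Eif3j1 was highest (16.5 to 19 CPM). Reads without a unique alignment were counted apart from the genes, so the level of each near-identical copy is uncertain. On chromosome 2, the phospholipase gene Pla2g4e (3.26 to 9.25 CPM in mice 17 and 18, 20.8 to 86.2 CPM in the others) and the secretory granule gene Scg5 (112 to 128 CPM and 221 to 349 CPM) were both low in mice 17 and 18. Ide, the insulin-degrading enzyme, ranged from 51.2 to 61.4 CPM in mice 15 and 16 to 113 to 128 CPM in mice 7 and 8. The origin of these differences between mice was not tested.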
